A study of Mus musculus with 72 samples.

Results

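The adipokine genes are 9 genes whose protein products are secreted by fat tissue: Adipoq, Lep, Retn, Cfd, Rbp4, Nampt, Apln, Rarres2 and Nrg4. They were taken by name, as the row of the count file whose Ensembl identifier maps to each symbol, and make up 9 of the 55416 counted genes. RNA was sequenced from epididymal white adipose tissue (eWAT, the fat pad beside the epididymis), liver and pituitary of the same 24 male mice. FED mice were born to dams with free access to food, and CR20 mice to dams under a 20% restriction of calories from embryonic day 15 until weaning. All mice were of a sighted FVB strain (FVB.129P2-Pde6b+ Tyrc-ch/AntJ), and from 8 weeks of age their own food held 10% fat (CTRL diet) or 45% fat (HFD). This gave the groups FED-CTRL, FED-HFD, CR20-CTRL and CR20-HFD, with 6 mice in each. The text of the study names 10 weeks on the diet for the sequenced males, and the labels leave the length open. The libraries of a group are separate mice, but the labels do not say which of them shared a dam. The study assessed how maternal undernutrition alters the response of the adult offspring to a high fat diet, and the comparisons below ask this of the genes through which fat tissue signals.

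White adipocytes store triglyceride and also act as endocrine cells. Adiponectin (Adipoq) and leptin (Lep) are the hormones that report on fat stores: adiponectin raises insulin sensitivity in liver and muscle, and leptin acts on the hypothalamus to reduce food intake. Blood leptin is known to rise and blood adiponectin to fall as fat mass grows. Resistin (Retn) is a cysteine-rich hormone that mouse adipocytes secrete. Adipsin (Cfd) is the serine protease complement factor D, Rbp4 is the blood carrier of retinol, and Nampt is an enzyme of NAD synthesis that is also found outside cells. Apelin (Apln), chemerin (Rarres2) and neuregulin 4 (Nrg4) are ligands of the receptors Aplnr, Cmklr1 and Erbb4. Several of these genes are used by other tissues too, with Rbp4 and Rarres2 also expressed by hepatocytes and Apln by endothelial cells.

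The genes lie on 8 chromosomes of GRCm39, with Lep and Rarres2 on the same one. Adipoq (ENSMUSG00000022878) spans chr16:22964106-22976810, Lep (ENSMUSG00000059201) chr6:29060216-29073877, Retn (ENSMUSG00000012705) chr8:3705324-3710689 and Cfd (ENSMUSG00000061780) chr10:79726668-79728496, and all 4 are on the plus strand. Rbp4 (ENSMUSG00000024990) spans chr19:38105066-38113754 on the minus strand and Nampt (ENSMUSG00000020572) chr12:32869544-32903368 on the plus strand. Apln (ENSMUSG00000037010) lies at chrX:47114019-47123775, Rarres2 (ENSMUSG00000009281) at chr6:48546630-48549762 and Nrg4 (ENSMUSG00000032311) at chr9:55121336-55234128, each on the minus strand. Exons of Rbp4 overlap those of Ffar4 on the other strand, and the same holds for Rarres2 with Lrrc61 and for Nrg4 with Fbxo22. The highest count of these neighbours in any eWAT library was 527, 325 and 1696. The kit marked strand but the setting used in counting is not given in the sources used here. How reads in the overlapping exons of such pairs were assigned is thus not known.

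Promoters from the RefSeq table (build GRCm38.p6) were found for 8 of the 9 members, all but Rarres2, with 2 start sites for Rbp4. Each runs from 250 bases before to 50 bases after a start site and matched the GRCm39 genome once, at the position given. Those of the 4 members that were near 0 outside fat, and the inner start of Rbp4, which was high in liver as well, are shown 5′ to 3′ in the direction of the gene. Capitals mark TTNCNNAA, a pattern of the kind bound by C/EBP factors of adipocyte differentiation, and TATAAA, the TATA box.
Adipoq, chr16:22965036-22965335, plus strand: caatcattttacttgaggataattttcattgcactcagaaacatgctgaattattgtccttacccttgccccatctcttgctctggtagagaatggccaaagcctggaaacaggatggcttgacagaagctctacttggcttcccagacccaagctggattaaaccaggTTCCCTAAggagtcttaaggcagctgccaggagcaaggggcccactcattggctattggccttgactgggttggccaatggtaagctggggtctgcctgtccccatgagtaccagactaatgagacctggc
Lep, chr6:29059970-29060269, plus strand: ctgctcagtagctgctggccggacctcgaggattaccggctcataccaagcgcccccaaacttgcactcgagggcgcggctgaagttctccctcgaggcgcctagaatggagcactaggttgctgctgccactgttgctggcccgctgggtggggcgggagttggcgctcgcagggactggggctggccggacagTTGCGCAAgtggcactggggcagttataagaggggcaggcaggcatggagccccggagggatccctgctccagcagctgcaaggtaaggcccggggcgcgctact
Retn, chr8:3705520-3705819, plus strand: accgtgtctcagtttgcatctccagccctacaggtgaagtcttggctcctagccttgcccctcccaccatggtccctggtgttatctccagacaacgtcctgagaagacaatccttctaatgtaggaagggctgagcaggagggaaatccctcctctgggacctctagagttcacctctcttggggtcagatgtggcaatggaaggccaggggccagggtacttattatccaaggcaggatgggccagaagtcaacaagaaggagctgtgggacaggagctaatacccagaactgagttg
Cfd, chr10:79726437-79726736, plus strand: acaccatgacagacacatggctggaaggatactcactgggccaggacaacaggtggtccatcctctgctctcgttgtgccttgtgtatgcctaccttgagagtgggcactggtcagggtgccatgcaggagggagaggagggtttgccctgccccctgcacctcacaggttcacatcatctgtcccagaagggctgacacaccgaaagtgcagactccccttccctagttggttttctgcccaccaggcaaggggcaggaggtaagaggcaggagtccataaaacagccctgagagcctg
Rbp4, chr19:38113210-38113509, minus strand: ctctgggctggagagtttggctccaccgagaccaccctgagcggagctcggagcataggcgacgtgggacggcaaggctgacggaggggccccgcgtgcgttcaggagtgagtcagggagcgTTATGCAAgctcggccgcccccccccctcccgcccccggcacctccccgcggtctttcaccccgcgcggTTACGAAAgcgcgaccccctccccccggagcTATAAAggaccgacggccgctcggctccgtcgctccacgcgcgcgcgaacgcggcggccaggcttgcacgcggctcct
The match in Adipoq began at position -81 from the start site and the one in Lep at position -55. The Rbp4 promoter held TTNCNNAA at -128 and -59 and TATAAA at -28. On both strands, TTNCNNAA was found in 5 of the 9 member promoters and in 40.7% of the 32544 distinct promoters of the table, and TATAAA in 1 of 9 and 13.6%. CANNTG, the E-box, was in 8 of 9 against 72.3%, and ACGTG, which is held by some E-boxes and by hypoxia response elements, in 3 of 9 against 19.7%. No member promoter held TCACNCCAC, found in 1.24% of promoters, or the DR1 repeat of nuclear receptors, found in 0.0399%. Such matches describe the letters of these windows and are not binding sites.

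Total counts were 11589675 to 22364963 per eWAT library, 9842813 to 19928212 in liver and 18299494 to 27601208 in pituitary, so that the detection floor of 3 counts corresponded to 0.109 to 0.305 CPM, the count per megaread of the library. This floor covers counting error only. The labelled tissues carried their markers. In eWAT the summed CPM of 10 adipocyte markers was 15277 to 48773, against 334 to 838 in liver and 179 to 437 in pituitary. The hepatocyte markers summed to 66589 to 111679 CPM in liver and at most 983 in eWAT, and the pituitary hormone markers to at least 232580 CPM in pituitary and at most 23.7 elsewhere. A pair of eWAT libraries stood apart. FED-HFD mouse 23 had an adipocyte sum of 15277 CPM and a macrophage sum (12 markers) of 14589 CPM, and it was the lowest FED-HFD mouse for 8 of the 9 members. CR20-CTRL mouse 5 had an adipocyte sum of 18002 CPM and was the lowest of its group for 7 of 9. Epididymis markers were at 0 in all FED eWAT libraries but summed to 133 CPM in CR20-CTRL mouse 4, 52.0 in CR20-CTRL mouse 5 and 26.4 in CR20-HFD mouse 6. Values without 1 or both of these mice are given where a call, a sign or the size of a difference rested on them.

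All 9 members were expressed in eWAT, and their levels there spanned 3 orders of size. Per kilobase of exon, Cfd had the highest median (4769 CPM per kb over the 24 mice), followed by Adipoq at 1641, Lep at 709, Rbp4 at 451, Retn at 377 and Rarres2 at 203. Nampt stood lower at 19.1, Nrg4 at 5.28 and Apln at 4.46 CPM per kb. Exon length here is the merged length of all annotated exons of a gene, from 964 bases for Cfd to 14147 for Nrg4. The order rests in part on this length: in CPM alone, Retn (median 1020) stood above Rbp4 (644). It was also not equally firm between mice. Rarres2 exceeded Nampt, and Nampt exceeded Nrg4, in 24 of 24 mice without overlap of the ranges, whereas the ranges of all other neighbours overlapped and Nrg4 exceeded Apln in 18 mice. Cfd exceeded Adipoq in 23 of 24 mice and Lep exceeded Rbp4 in 21, while Rbp4 exceeded Retn in 19.

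Adipoq, Lep, Retn and Cfd were near 0 outside fat, apart from Adipoq and Cfd in the pituitary of FED-HFD mouse 10. Not all of these values were under the detection floor of 3 counts. Retn was at 3 counts or fewer in 5 of 24 pituitaries and Cfd in 13 of 24 livers. In liver the highest value of any library was 0.344 CPM for Adipoq, 0.218 for Lep, 0.155 for Retn and 0.943 for Cfd, and 9, 16, 19 and 2 of the 24 libraries had no read. The lowest eWAT library still held 644 CPM of Adipoq, 988 of Lep, 121 of Retn and 178 of Cfd. In pituitary Lep reached at most 0.452 CPM and Retn 0.858 CPM. Adipoq and Cfd were at or under 0.251 and 0.450 CPM in 23 pituitary libraries and stood at 14.6 and 17.6 CPM in that of FED-HFD mouse 10. The same library held 107 CPM of Ucp1, the uncoupling protein of brown fat, and its adipocyte sum was 437 CPM against 179 to 226 in the rest.

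The other 5 members were shared with liver, pituitary or both. Rbp4 was the top member in liver, at a median of 2638 CPM per kb, and also in pituitary, at 81.0. Rarres2 (143 CPM per kb), Nampt (21.4) and Nrg4 (0.851) followed in liver in the same order in every mouse. Apln was near 0 in liver, with at most 0.282 CPM and 11 libraries without a read, and second in pituitary, at 7.80 CPM per kb against 7.02 for Nampt. Apln exceeded Nampt in 17 of 24 pituitaries, so these neighbours did not differ beyond their spread. In CPM without division by exon length, Nampt (median 37.3) stood above Apln (29.5) there. In a joint fit of all libraries with the mouse numbers left out, Rbp4 was lower in eWAT than in liver by a log2 fold change (log2FC) of -3.46 (standard error, SE, 0.14, edgeR adjusted p = 1.24e-34), an 11.0-fold difference. It was 4.53-fold higher in eWAT than in pituitary (log2FC 2.18, SE 0.13, edgeR adjusted p = 6.62e-25). Nrg4 was 4.20-fold higher in eWAT than in liver (log2FC 2.07, SE 0.15, edgeR adjusted p = 7.58e-20). Apln was 1.83-fold lower in eWAT than in pituitary (log2FC -0.87, SE 0.10, edgeR adjusted p = 2.32e-12).

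The direction for Rarres2 between eWAT and liver rested on the scaling. Its log2FC was -0.37 (SE 0.11) with TMM factors, short of the 0.58 needed for a call, and 0.37 with library totals alone. Nampt was lower in eWAT than in liver with TMM factors (log2FC -0.93, SE 0.08, edgeR adjusted p = 3.15e-17) but at -0.19 and not called with library totals alone. A call here and below needed an adjusted p under 0.055 and an absolute log2FC of at least 0.58. By that rule 8 members were called between eWAT and liver, 9 between eWAT and pituitary and 6 between liver and pituitary, where 66.1%, 70.3% and 76.5% of all 19210 genes were called. For the genes near 0 in a tissue these calls carry no fold. The 3 tissues of a mouse share its number in the labels, and fitting the mouse as a block changed no call. RNA of liver was isolated with another kit than that of eWAT and pituitary, so tissue and isolation cannot be told apart.

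**Figure D1:**
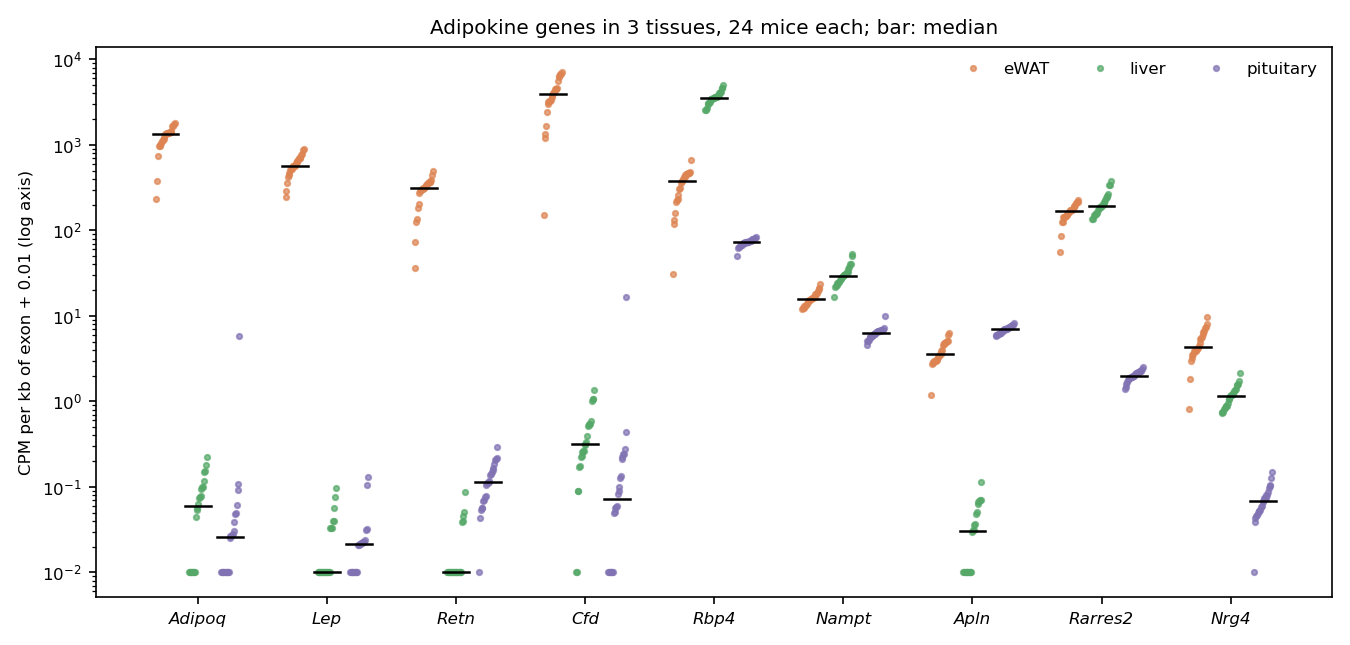
Level of each adipokine gene in eWAT, liver and pituitary. Each point is 1 mouse (24 per tissue), the vertical axis is CPM per kilobase of exon plus 0.01 on a log scale with TMM factors fitted over all 3 tissues, and bars are medians. Adipoq, Lep, Retn and Cfd sit far above their other tissues in eWAT, Rbp4 is highest in liver, and the Adipoq and Cfd point of FED-HFD mouse 10 stands above the other pituitaries.

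Rbp4 was lower in the eWAT of FED offspring on the high fat diet, and most other members had lower values that did not pass the test. In FED-HFD versus FED-CTRL, 8 of the 9 members had a log2FC below 0, with a median of -0.59, where the median of all 15964 tested genes was -0.0016. The 10 adipocyte markers were all below 0 there as well, with a median of -0.39, so this direction was not particular to the members. Rbp4 was called lower, to 0.433 times the FED-CTRL level, and it was the only member called (1 of 9, where 8.01% of all genes were called in either direction and 1.58% as lower). A share of 1 in 9 is close to that background and says nothing of the members as a group. The test used by the study, limma voom with quality weights, called 4 members, namely Rbp4, Retn, Cfd and Nrg4, where it called 9.66% of all genes. In bulk tissue, fewer cells of a type and less RNA per cell cannot be told apart. The adipocyte sum was 15277 to 38799 CPM (median 35568) in FED-HFD and 38329 to 42360 (median 40170) in FED-CTRL. The macrophage sum was 2377 to 14589 CPM (median 3732) in FED-HFD, above all FED-CTRL mice at 1365 to 2093, and 10 of its 12 markers were called higher. Their part in the adipokine values was not tested.

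Among HFD-fed mice, the eWAT of offspring of CR20 dams held more Cfd, Retn and Apln transcript than that of FED dams. In CR20-HFD versus FED-HFD, 8 of 9 members had a log2FC above 0, with a median of 0.64 against 0.022 for all genes. The 10 adipocyte markers were all above 0 there too, with a median of 0.36. Cfd rose 2.81-fold, Retn 2.03-fold and Apln 1.73-fold, which made 3 of 9 members called, where 9.73% of all genes were called in either direction and 2.45% as higher. Voom with quality weights called Rbp4 as well as these 3, and called 9.34% of all genes. This comparison and the previous one share the FED-HFD mice, so a low value there moves both. The macrophage sum in CR20-HFD was 1023 to 1970 CPM, below every FED-HFD mouse, with 11 of 12 markers called lower, and the adipocyte sum was 37064 to 40868 CPM. Without mice 23 and 5, Rbp4 and Retn were called in FED-HFD versus FED-CTRL and Cfd, Retn and Apln in CR20-HFD versus FED-HFD. In that fit 819 and 1093 of all 15993 tested genes were called in these 2 comparisons.

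**Figure D2:**
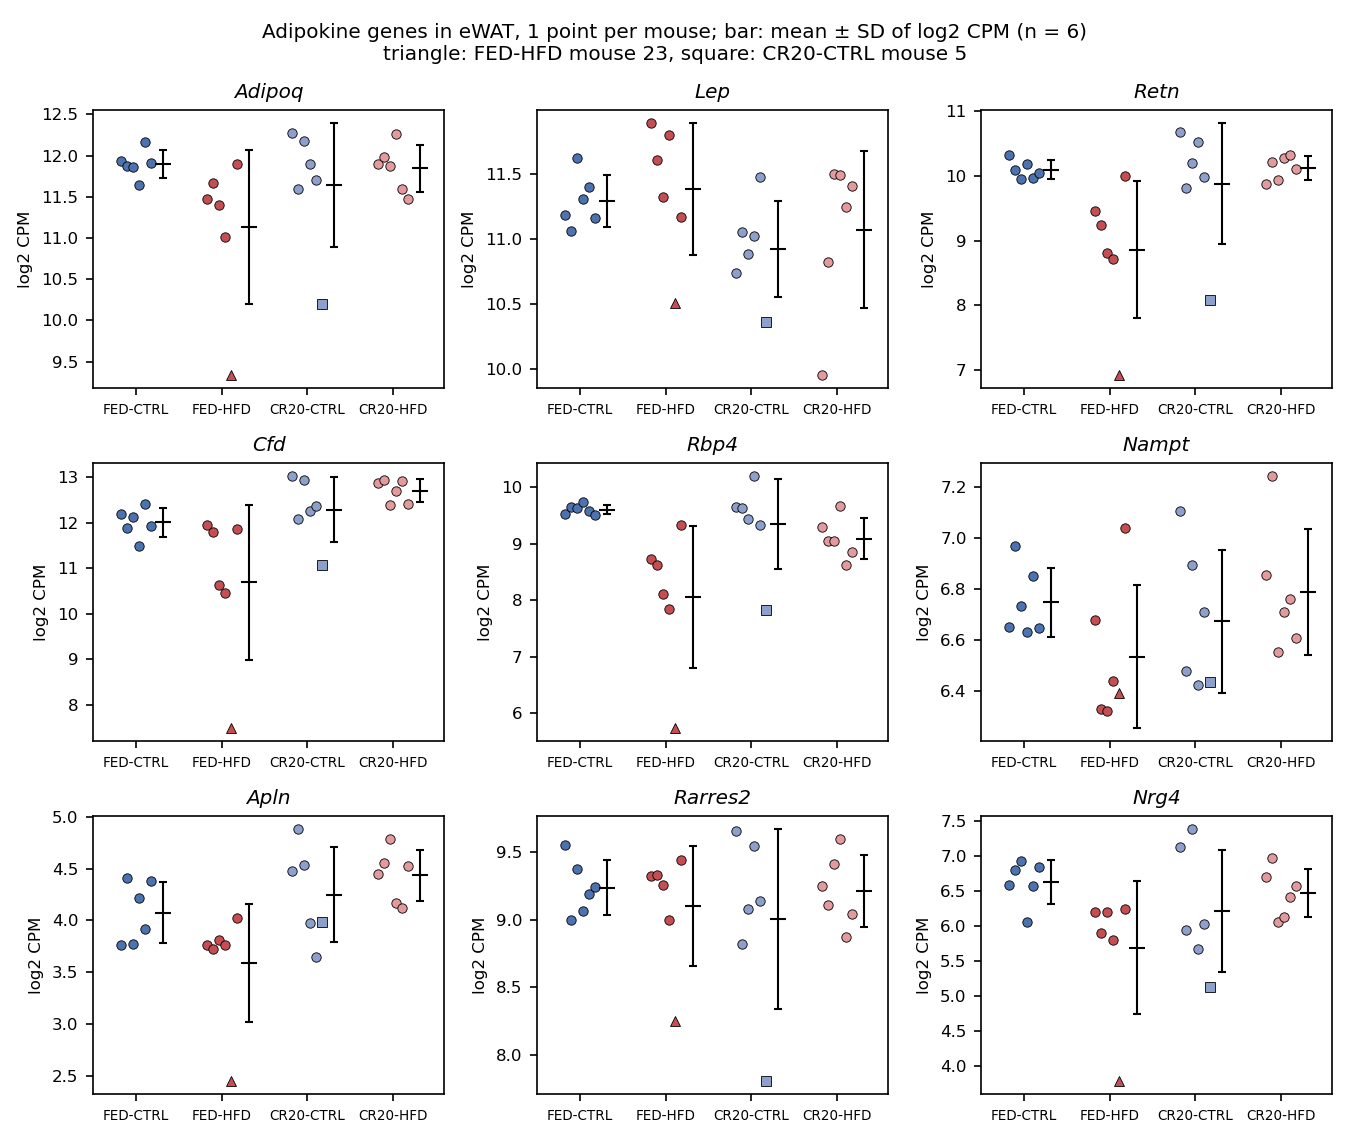
Log2 CPM of the 9 adipokine genes in eWAT, with a panel for each gene. Each point is 1 mouse, bars give the mean ± SD of the 6 mice of a group, the triangle is FED-HFD mouse 23 and the square CR20-CTRL mouse 5. For Rbp4 all FED-HFD mice lie below all FED-CTRL mice, and for Cfd and Apln all CR20-HFD mice lie above all FED-HFD mice, where 6.76% and 6.67% of all genes did not overlap in either direction.

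**Figure D3:**
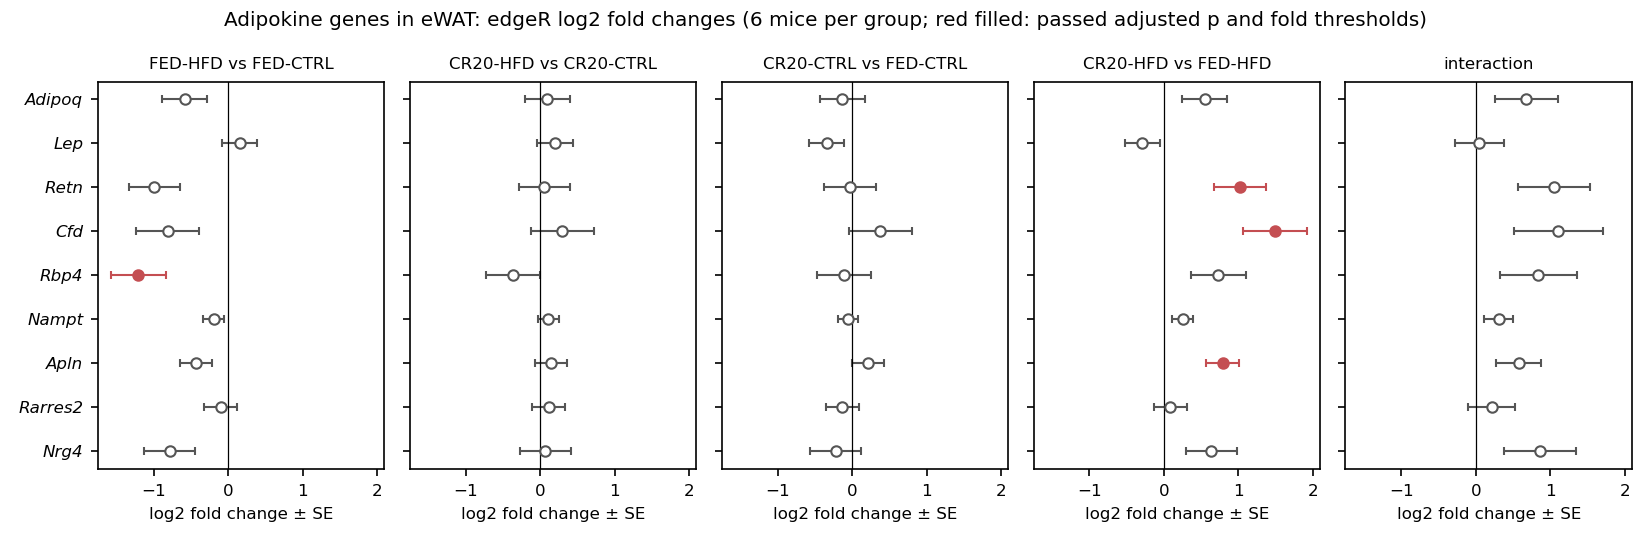
Log2FC of each adipokine gene in eWAT in the 4 comparisons and the interaction. Points are edgeR estimates, bars are ± 1 SE, and filled red points are called genes. Rbp4 is called in FED-HFD versus FED-CTRL, Cfd, Retn and Apln in CR20-HFD versus FED-HFD, and none in the other panels.

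Adipoq was at 3197 to 4605 CPM (median 3789) in FED-CTRL and 644 to 3829 (median 2775) in FED-HFD. Offspring of CR20 dams had 1178 to 4974 CPM (median 3584) on the control diet and 2836 to 4931 (median 3779) on the HFD. Thus 4 of 6 FED-HFD mice lay below the lowest FED-CTRL mouse, while the CR20-HFD range covered that of FED-CTRL. The log2FC of FED-HFD versus FED-CTRL was -0.59 (SE 0.30, edgeR adjusted p = 0.228, exact permutation p = 0.0173), and that of CR20-HFD versus FED-HFD was 0.55 (SE 0.30, edgeR adjusted p = 0.230, exact permutation p = 0.0563). The exact test is two-sided and runs over all 924 divisions of 12 mice into groups of 6, so that 0.00216 is the smallest p it can give. Neither difference was called by edgeR, and without mice 23 and 5 they were -0.38 (edgeR adjusted p = 0.144) and 0.35 (edgeR adjusted p = 0.149). Leaving out FED-HFD mouse 23 alone gave the same -0.38 and 0.35.

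Lep was the only member with a log2FC above 0 in FED-HFD versus FED-CTRL. It lay between 2142 and 3157 CPM (median 2435) in FED-CTRL, 1459 and 3804 (median 2845) in FED-HFD, 1312 and 2851 (median 1985) in CR20-CTRL, and 988 and 2896 (median 2580) in CR20-HFD. The ranges overlapped in every pair of groups. The log2FC was 0.15 (SE 0.24, edgeR adjusted p = 0.734) for FED-HFD versus FED-CTRL and -0.29 (SE 0.24, edgeR adjusted p = 0.427) for CR20-HFD versus FED-HFD. The first was 0.044 without FED-HFD mouse 10 and 0.28 without FED-HFD mouse 23, and the second was -0.14 without CR20-HFD mouse 31. On the control diet, 5 of 6 CR20 mice lay below the lowest FED mouse, with a log2FC of -0.34 (SE 0.24, edgeR adjusted p = 0.889, exact permutation p = 0.0563).

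Retn stood in a narrow band of 996 to 1287 CPM (median 1077) in FED-CTRL and spread from 121 to 1030 CPM (median 527) in FED-HFD. It was at 271 to 1649 CPM (median 1096) in CR20-CTRL and 942 to 1284 CPM (median 1148) in CR20-HFD. Of the FED-HFD mice 5 of 6 lay below every FED-CTRL mouse, and 4 of 6 CR20-HFD mice lay above every FED-HFD mouse. The log2FC of FED-HFD versus FED-CTRL was -0.99 (SE 0.35, edgeR adjusted p = 0.0687, exact permutation p = 0.00649), which missed the call, and it was -0.78 (edgeR adjusted p = 0.0102) without mice 23 and 5. In CR20-HFD versus FED-HFD Retn was called, with a log2FC of 1.02 (SE 0.35, edgeR adjusted p = 0.0493, exact permutation p = 0.00649), and it was 0.81 (edgeR adjusted p = 0.00555) without these mice. This call sat close to its threshold: leaving out 1 mouse at a time ended it in 19 of 24 fits. Retnla, a relative of resistin, was at a median of 493 to 523 CPM in all groups and was not called in any comparison.

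Cfd had the widest spread of any member in FED-HFD (SD 1.70 in log2 CPM, n = 6). It ranged from 2872 to 5433 CPM (median 4195) in FED-CTRL and from 178 to 3961 CPM (median 2556) in FED-HFD. In CR20-CTRL it ranged from 2163 to 8351 CPM (median 5060) and in CR20-HFD from 5317 to 7782 CPM (median 7033). Every CR20-HFD mouse was above every FED-HFD mouse, where 6.67% of all genes did not overlap in either direction, and the FED-CTRL range overlapped both. The log2FC of CR20-HFD versus FED-HFD was 1.49 (SE 0.43, edgeR adjusted p = 0.0226, exact permutation p = 0.00216), and 1.24 (edgeR adjusted p = 0.00235) without mice 23 and 5. The call was lost when only the groups compared were fitted (edgeR adjusted p = 0.0751). FED-HFD versus FED-CTRL gave -0.81 (SE 0.43, edgeR adjusted p = 0.235, exact permutation p = 0.0455), with 3 of 6 FED-HFD mice below the lowest FED-CTRL mouse, and -0.57 (edgeR adjusted p = 0.174) without mice 23 and 5.

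Rbp4 had the smallest spread of any member in FED-CTRL (SD 0.084 in log2 CPM, n = 6) and the lowest log2FC in FED-HFD. The FED-CTRL mice lay between 729 and 849 CPM (median 776) and the FED-HFD mice between 53.0 and 647 CPM (median 334), with no overlap, as in 6.76% of all genes. The log2FC was -1.21 (SE 0.37, edgeR adjusted p = 0.0377, exact permutation p = 0.00216) and, without mice 23 and 5, -0.98 (edgeR adjusted p = 0.00575). Leaving out a mouse at a time gave adjusted p-values of 0.00999 to 0.0836, and the call was lost without FED-HFD mouse 12 or 13 or without any of the 6 FED-CTRL mice. In offspring of CR20 dams Rbp4 was at 227 to 1176 CPM (median 741) on the control diet and 395 to 816 CPM (median 529) on the HFD. CR20-HFD versus FED-HFD gave 0.73 (SE 0.37, edgeR adjusted p = 0.183, exact permutation p = 0.0455), with 1 of 6 CR20-HFD mice above the FED-HFD range, and 0.51 (edgeR adjusted p = 0.114) without mice 23 and 5.

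Nampt was not called by edgeR in FED-HFD versus FED-CTRL or in CR20-HFD versus FED-HFD. It was at 99.2 to 125 CPM (median 103) in FED-CTRL, 80.0 to 132 (median 85.4) in FED-HFD, 85.8 to 138 (median 96.9) in CR20-CTRL and 93.9 to 151 (median 107) in CR20-HFD. Its log2FC was -0.20 (SE 0.14, edgeR adjusted p = 0.398) in FED-HFD versus FED-CTRL and 0.25 (SE 0.14, edgeR adjusted p = 0.234) in CR20-HFD versus FED-HFD. The first was -0.32 without FED-HFD mouse 40 and the second 0.14 without CR20-HFD mouse 32.

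Of the receptor ligands, Apln was called although it was the member of lowest level per kilobase. Its CPM was 13.6 to 21.3 (median 16.8) in FED-CTRL, 5.46 to 16.3 (median 13.6) in FED-HFD, 12.6 to 29.5 (median 19.0) in CR20-CTRL and 17.4 to 27.6 (median 22.4) in CR20-HFD. The CR20-HFD mice lay wholly above the FED-HFD mice (6.67% of all genes did not overlap there), with a log2FC of 0.79 (SE 0.22, edgeR adjusted p = 0.0174, exact permutation p = 0.00216), and 0.63 (edgeR adjusted p = 0.0236) without mice 23 and 5. FED-HFD versus FED-CTRL gave -0.44 (SE 0.22, edgeR adjusted p = 0.205), and -0.28 without FED-HFD mouse 23. The summed CPM of 5 endothelial markers was 389 to 599 in CR20-HFD and 181 to 403 in FED-HFD, with a log2FC above 0 for all 5, of which 1 was called, the endothelial receptor Tek (log2FC 0.65, SE 0.22, edgeR adjusted p = 0.0479). The part of this in the Apln value was not tested.

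Rarres2 and Nrg4 were not called by edgeR in either of these comparisons. Rarres2 stood at 512 to 751 CPM (median 594) in FED-CTRL, 305 to 695 (median 626) in FED-HFD, 224 to 804 (median 551) in CR20-CTRL and 467 to 775 (median 579) in CR20-HFD, and the sign of its small log2FC of -0.10 in FED-HFD versus FED-CTRL and 0.083 in CR20-HFD versus FED-HFD turned without mouse 23. Nrg4 was at 66.9 to 122 CPM (median 104) in FED-CTRL and 13.8 to 75.7 (median 66.7) in FED-HFD. In offspring of CR20 dams it was at 35.1 to 168 CPM (median 63.8) on the control diet and 67.1 to 125 (median 90.5) on the HFD. All 6 FED-HFD mice were below the FED-CTRL median, with a log2FC of -0.79 (SE 0.34, edgeR adjusted p = 0.148, exact permutation p = 0.00866), and CR20-HFD versus FED-HFD gave 0.64 (SE 0.34, edgeR adjusted p = 0.217, exact permutation p = 0.0238). Without mice 23 and 5 these were -0.58 and 0.43. Voom with quality weights called Nrg4 in FED-HFD versus FED-CTRL (adjusted p = 0.0299).

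No adipokine gene was called between diets in offspring of CR20 dams or between maternal groups on the control diet. In CR20-HFD versus CR20-CTRL the log2FC ran from -0.37 for Rbp4 to 0.30 for Cfd, with edgeR adjusted p-values of 0.947 to 0.989 and overlapping ranges for all 9 members. In CR20-CTRL versus FED-CTRL it ran from -0.34 for Lep to 0.38 for Cfd, with edgeR adjusted p-values of 0.889 to 0.996. Both are comparisons in which edgeR called 0 genes of the whole table (0%), with 962 and 1180 genes at an unadjusted p under 0.05, of which 0 were members. Voom with and without quality weights called 0 genes in both, and DESeq2 called 1 and 150 genes, with 0 members among them. The wide CR20-CTRL ranges limit what these comparisons can show: Retn, for instance, had an SD of 485 CPM in CR20-CTRL and 111 in FED-CTRL (n = 6 each).

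Whether the response to the HFD differed between maternal groups was tested as an interaction, the log2FC of CR20-HFD versus CR20-CTRL minus that of FED-HFD versus FED-CTRL. The value was above 0 for all 9 members, from 0.048 for Lep to 1.11 (SE 0.60, edgeR adjusted p = 0.328) for Cfd, with a median of 0.68 against -0.024 for all genes. It was also above 0 for all 10 adipocyte markers, with a median of 0.46. Retn had the smallest p-value, with an interaction of 1.05 (SE 0.49, edgeR adjusted p = 0.259, the only member with an unadjusted p under 0.05). No member was called, where 2.42% of all genes were. Voom with quality weights called 177 genes, voom without them 0 and DESeq2 820, without a member among them. A change in FED offspring that differs from that in CR20 offspring is thus not shown for any single adipokine. Without mice 23 and 5 the interaction was above 0 for 7 of 9 members, and none was called, where 181 of 15993 genes were. Lep (-0.18) and Rarres2 (-0.072) turned below 0, and the value was 0.70 for Cfd (edgeR adjusted p = 0.431), 0.64 for Retn (edgeR adjusted p = 0.290), 0.43 for Rbp4 and 0.30 for Adipoq.

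Set against the adipocyte markers of the same library, the groups did not overlap for Rbp4, by a narrow gap, or for Cfd. Those for Apln overlapped. The part of adipocyte content in these values was not tested. Per 1000 CPM of the adipocyte sum, Rbp4 was at 3.47 to 17.9 CPM (median 8.78) in FED-HFD and 18.2 to 22.1 (median 18.5) in FED-CTRL. Cfd was at 138 to 210 (median 173) in CR20-HFD and 11.7 to 113 (median 68.2) in FED-HFD. Apln came to 0.434 to 0.720 in CR20-HFD and 0.340 to 0.450 in FED-HFD. Retn came to 23.0 to 32.0 in CR20-HFD against 7.89 to 28.4 in FED-HFD and overlapped too. The ratio of Lep to Adipoq, which sets the hormone that rises with fat mass over the one that falls, was 0.572 to 0.846 (median 0.595) in FED-CTRL and 0.601 to 2.26 (median 1.15) in FED-HFD. Of the FED-HFD mice 5 of 6 were above the highest FED-CTRL mouse. In CR20-CTRL it was 0.343 to 1.11 (median 0.617) and in CR20-HFD 0.260 to 0.961 (median 0.678), with 2 and 1 mice above the highest FED-CTRL mouse. These ratios are descriptions without a test. The share of all genes whose groups do not overlap on such ratios was not computed.

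**Figure D4:**
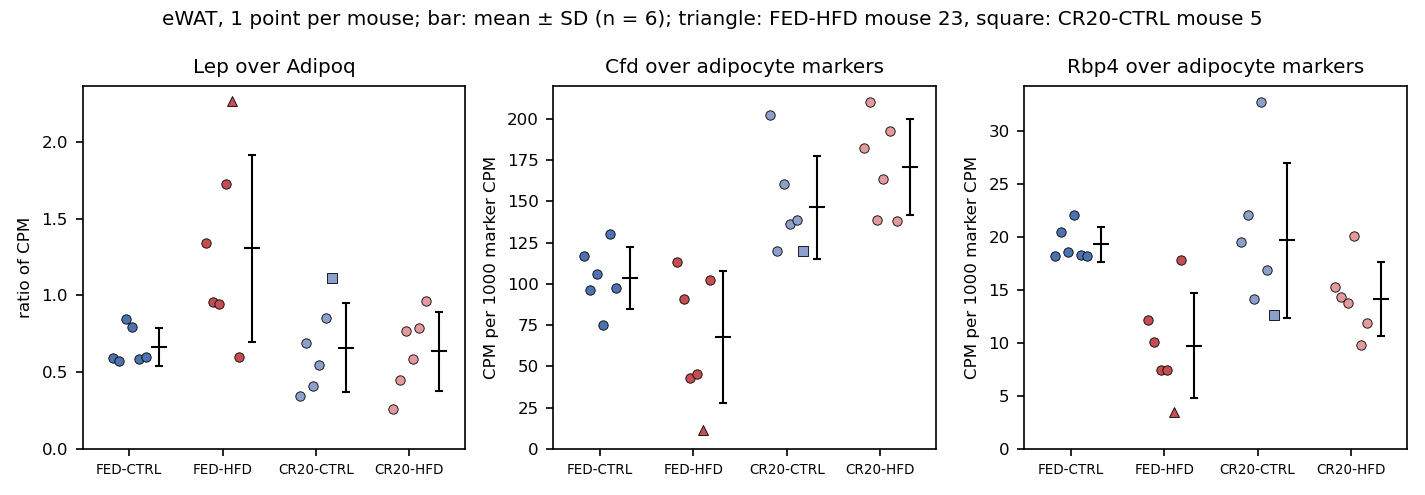
Ratios within each eWAT library, by group. The panels show CPM of Lep over CPM of Adipoq, and CPM of Cfd and of Rbp4 per 1000 CPM of 10 adipocyte markers. Each point is 1 mouse, and bars give the mean ± SD of the 6 mice of a group. Cfd of CR20-HFD lies above all of FED-HFD, Rbp4 of FED-HFD below all of FED-CTRL, and 5 of 6 FED-HFD mice exceed the highest Lep to Adipoq ratio of FED-CTRL. The share of all genes without overlap on such ratios was not computed.

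Of the receptors and carriers of these adipokines, a few with low levels were called in eWAT. Of 11 tested genes, 2 were called higher and 1 lower in FED-HFD versus FED-CTRL, with a list median of -0.32, where 8.01% of all genes were called. Ccrl2, a chemerin-binding receptor of immune cells, rose (log2FC 1.45, SE 0.32, edgeR adjusted p = 0.00680) and was lower in CR20-HFD by the other comparison (log2FC -1.50, SE 0.33, edgeR adjusted p = 0.00371). Cmklr2, another chemerin receptor, fell in FED-HFD (log2FC -0.84, SE 0.27, edgeR adjusted p = 0.0458) and was higher in CR20-HFD (log2FC 0.85, SE 0.27, edgeR adjusted p = 0.0362), at a median of at most 1.45 CPM in any group. Cmklr1, the signalling receptor of chemerin, had a log2FC of -0.71 (edgeR adjusted p = 0.0577) in FED-HFD versus FED-CTRL and was not called. The adiponectin receptors Adipor1 and Adipor2, the adiponectin-binding Cdh13 and the apelin receptor Aplnr were not called either, with log2FC values of -0.42 to -0.18 in that comparison. Erbb4, the receptor of neuregulin 4, was at a median of 0 CPM in all 4 groups.

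The third call of that list was Ttr, the blood partner of Rbp4, and it rested on a few libraries. Ttr had medians of 0.119 to 0.620 CPM and stood at 51.0 CPM in FED-HFD mouse 10 and 40.5 in CR20-CTRL mouse 5, where the hepatocyte gene Apoa1 stood at 110 and 41.4 CPM. It was called higher in FED-HFD versus FED-CTRL, lower in CR20-HFD versus FED-HFD (1 higher and 2 lower calls of this list there, where 9.73% of all genes were called) and lower in the interaction. The 3 genes of adiponectin assembly and secretion (Ero1a, Erp44 and Gstk1) were not called, with log2FC values of -0.45 to 0.057 in FED-HFD versus FED-CTRL.

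Among 17 tested other secreted factors of adipose tissue, 4 were called in FED-HFD versus FED-CTRL, all of them higher (8.01% of all genes were called). Metrnl, a hormone of fat and muscle, rose with a log2FC of 1.24 (SE 0.25, edgeR adjusted p = 0.00389), and the monocyte attractant Ccl2 with one of 1.23 (SE 0.28, edgeR adjusted p = 0.00817). The stress cytokine Gdf15 (2.13, edgeR adjusted p = 0.0353) and the inflammatory cytokine Tnf (1.00, edgeR adjusted p = 0.0508) rose at levels of at most 5.65 CPM. In CR20-HFD versus FED-HFD, 2 genes of the list were higher and 4 lower, where 9.73% of all genes were called. Agt, the angiotensin precursor, was higher (log2FC 1.53, SE 0.33, edgeR adjusted p = 0.00378), as was the selenium-dependent peroxidase Gpx3 (0.91, edgeR adjusted p = 0.0145). Metrnl (-1.24, edgeR adjusted p = 0.00230), osteopontin or Spp1 (-2.91, edgeR adjusted p = 0.0104) and Tnf (-1.27, edgeR adjusted p = 0.0131) were lower. FED-HFD mouse 23 was the highest of its group for Metrnl, Ccl2, Gdf15, Tnf and Spp1. Metrnl was the 1 gene of this list with a called interaction (-1.30, SE 0.35, edgeR adjusted p = 0.0514).

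Of 7 tested C1q/TNF paralogues, which share the globular domain of adiponectin, C1qtnf7 fell in FED-HFD (log2FC -0.59, edgeR adjusted p = 0.00965) and C1qtnf6 rose (0.86, edgeR adjusted p = 0.0374), which is 2 of 7 where 8.01% of all genes were called. In CR20-HFD versus FED-HFD, C1qtnf12, also known as adipolin, was higher (0.68, edgeR adjusted p = 0.0193), and so was C1qtnf9 (0.81, edgeR adjusted p = 0.0274), where 9.73% of all genes were called. C1qtnf12 was at 95.1 to 105 CPM in CR20-HFD and 30.1 to 79.6 in FED-HFD, without overlap (6.67% of all genes did not overlap there). Of the adipocyte markers 1 of 10 was called, the glucose transporter Slc2a4, which fell in FED-HFD (log2FC -0.93, SE 0.26, edgeR adjusted p = 0.0249).

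Over the 24 eWAT libraries the genes most like each member in log2 CPM differed between most members. Retn shared Thrsp with Rbp4 and Mogat1 with Cfd. Nearest to Adipoq were Hibch (Pearson r = 0.986) and Hibadh (0.969), enzymes of valine breakdown, and Phgdh (0.966), the entry enzyme of serine synthesis. Retn was nearest to Cdo1 (0.969), Mogat1 (0.964) and Thrsp (0.960), and Rbp4 to Pygl (0.969), Laptm4b (0.969) and Thrsp (0.968). Cfd was nearest to Pccb (0.961), Phyh (0.953) and Mogat1 (0.952), and Nrg4 to Gm36860 (0.963), Bnip3 (0.944) and Sulf2 (0.940). The other members had weaker neighbours. For Rarres2 they were Gpx4 (0.904), Dbi (0.900) and Aga (0.900), for Apln the endothelial gene Myct1 (0.873), Gpr4 (0.848) and Rgs3 (0.848), for Lep Aen (0.846), Tuba1a (0.844) and Syp (0.840), and for Nampt Tspan4 (0.792), Enpp2 (0.791) and Ldaf1 (0.780). These values describe libraries that share group differences and the low points of mice 23 and 5, and carry no test.

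In liver 4 members passed the filter on low counts, and 0 were called by edgeR in any comparison, with 0 to 2 at an unadjusted p under 0.05. All genes of the liver were called at 0.109% in FED-HFD versus FED-CTRL, 0.522% in CR20-HFD versus CR20-CTRL and 0% in the maternal comparisons and the interaction. Nrg4 had the largest differences. It was at 8.78 to 20.5 CPM (median 15.6) in FED-CTRL and 7.58 to 12.2 (median 9.97) in FED-HFD, and at 12.2 to 18.3 (median 13.9) in CR20-CTRL and 7.67 to 11.9 (median 8.47) in CR20-HFD. All CR20-HFD livers lay below all CR20-CTRL livers, which 0.508% of all genes did in either direction. The log2FC was -0.64 (SE 0.17, edgeR adjusted p = 0.107, exact permutation p = 0.00216) in CR20 offspring and -0.58 (SE 0.17, edgeR adjusted p = 0.343, exact permutation p = 0.0238) in FED offspring. DESeq2 called the first of these (adjusted p = 0.0265). The interaction was -0.063 (SE 0.24), so no difference between the maternal groups was detectable. Hepatocytes are not the main known source of Nrg4. Fbxo22, which overlaps it, had counts of its own (at most 841 in liver), and how reads in the overlapping exons were assigned is not known.

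Rbp4, which hepatocytes load with retinol and secrete, was at 2727 to 3946 CPM (median 3722) in FED-CTRL livers, 3320 to 5221 (median 3964) in FED-HFD, 2598 to 3866 (median 3316) in CR20-CTRL and 3764 to 4877 (median 3793) in CR20-HFD. Its log2FC on the HFD was 0.25 (SE 0.14, edgeR adjusted p = 0.856) in FED offspring and 0.31 (SE 0.14, edgeR adjusted p = 0.474, exact permutation p = 0.0108) in CR20 offspring. Neither was called. Nampt was at 108 to 198 CPM in FED-CTRL and 84.9 to 132 in CR20-CTRL, with a log2FC of -0.40 (SE 0.20, edgeR adjusted p = 0.999, exact permutation p = 0.0346). Among HFD-fed mice it was at 88.6 to 209 CPM in FED and 63.6 to 139 in CR20 offspring (log2FC -0.41, SE 0.20, edgeR adjusted p = 1.00). These were -0.26 without FED-CTRL mouse 41 and -0.25 without FED-HFD mouse 40. In both maternal comparisons edgeR called 0 liver genes, with 299 and 493 at an unadjusted p under 0.05, where voom with quality weights called 0 and 0 and DESeq2 0 and 1. Rarres2 ranged from 281 to 840 CPM over the 24 livers, and its log2FC lay between -0.0016 and 0.33.

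**Figure D5:**
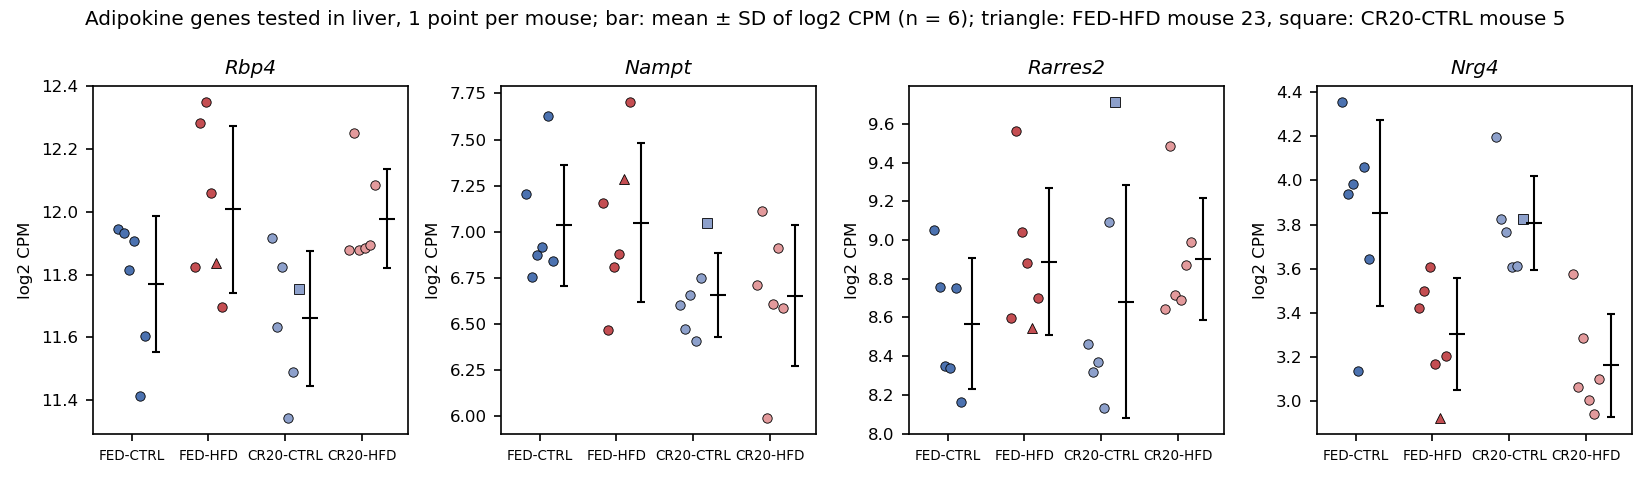
Log2 CPM of Rbp4, Nampt, Rarres2 and Nrg4 in liver. Each point is 1 mouse and bars give the mean ± SD of 6 mice. Nrg4 is lower in the HFD groups, without overlap between CR20-HFD and CR20-CTRL, and none of the 4 genes was called by edgeR.

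In pituitary 6 members passed the filter and 0 were called in any of the 4 comparisons or the interaction, where 0% of all genes were called by edgeR. At an unadjusted p under 0.05 there were 2 members in FED-HFD versus FED-CTRL, 2 in the interaction and 0 in the rest. Between 1127 and 2887 genes had an unadjusted p under 0.05 in these contrasts, voom with quality weights called 72 genes in CR20-CTRL versus FED-CTRL and 0 in the others, and DESeq2 called 0 to 54, with 0 members in each case. Nampt was at 27.0 to 38.5 CPM (median 34.0) in FED-CTRL and 33.9 to 58.1 (median 39.5) in FED-HFD. Of the FED-HFD pituitaries 5 of 6 exceeded all of FED-CTRL, with a log2FC of 0.33 (SE 0.11, edgeR adjusted p = 0.294, exact permutation p = 0.0173), which was 0.21 without FED-HFD mouse 40. It was at 30.0 to 43.4 CPM (median 38.4) in CR20-CTRL and 31.0 to 40.4 (median 37.1) in CR20-HFD, and the interaction was -0.39 (SE 0.15, edgeR adjusted p = 0.379). Retn was under 1 CPM in every pituitary, with 0 to 0.393 CPM in FED-CTRL and 0.131 to 0.858 in FED-HFD (log2FC 1.24, SE 0.49, edgeR adjusted p = 0.402, exact permutation p = 0.0628). Rbp4 (78.7 to 134 CPM), Apln (24.2 to 35.1 CPM) and Rarres2 (4.55 to 8.14 CPM) were not called, and Nrg4 was at 0 to 2.15 CPM.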

How the data were processed

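Per the study's methods and the labels, the authors trimmed the reads with Trimmomatic, aligned them with STAR to GRCm39 and counted them per Ensembl gene with featureCounts of Subread. The deposited values are raw read counts, 1 column for each library. Groups and mouse numbers came from the labels. Names came from GENCODE M39 (54749 of 55416 identifiers).

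Each tissue was fitted with edgeR 4.0.16 in R 4.3.3: filterByExpr, TMM factors, and the quasi-likelihood test on 24 libraries with a mean for each group. P-values were adjusted over all tested genes by the Benjamini-Hochberg method. A gene was called at the thresholds of the study's methods, an adjusted p under 0.055 and an absolute log2FC of at least 0.58. CPM used TMM factors, with a prior count of 2 on the log2 scale. The SE is the log2FC over the square root of F. Single genes were also compared by an exact permutation test (scipy 1.17.1). Tissues were compared in 1 fit of all libraries. The fits were tested on simulated data. Alternatives included limma 3.58.1 voom with and without quality weights and DESeq2 1.42.0.

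The members, gene lists and markers were chosen with earlier results of these data known. The genes named are the 9 members, up to 5 called genes of each list and comparison, and the 3 genes nearest to each member. Alternatives without mice 23 and 5, without pituitary mouse 10 and with library totals alone were added after seeing the data.

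By the labels the liver, eWAT and pituitary of a mouse carry its number, so mouse numbers pair tissues and not groups. The deviations of a mouse from its group means correlated between tissues with a median of 0.059 (eWAT and liver), 0.039 (eWAT and pituitary) and 0.072 (liver and pituitary).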

Additional observations from a re-analysis of the deposited data

Results flagged for a closer look

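In groups of 6 mice, the gap between the most extreme mouse and its nearest neighbour was set against the group's whole range on the log2 scale, and in 12 of 78 combinations of gene, tissue and group the mouse was farther off than Dixon's test at the 95% level allows. Chance alone gives this in about 1 of 20 groups. The flags share mice and are not separate, and 2 of the 78 combinations (Adipoq and Cfd in FED-HFD pituitary) were examined only because mouse 10 was high there. In eWAT, FED-HFD mouse 23 was far below the others for 4 members. It had 644 CPM of Adipoq (others 2069 to 3829), 178 of Cfd (1403 to 3961), 5.46 of Apln (13.2 to 16.3) and 13.8 of Nrg4 (56.0 to 75.7). CR20-CTRL mouse 5 was far below its group for 3 members, with 1178 CPM of Adipoq (3093 to 4974), 271 of Retn (903 to 1649) and 227 of Rbp4 (641 to 1176). In liver, CR20-CTRL mouse 33 had 18.3 CPM of Nrg4 (others 12.2 to 14.2).

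In pituitary, FED-HFD mouse 10 had 14.6 CPM of Adipoq (others 0 to 0.131) and 17.6 of Cfd (0.0496 to 0.226), with a thermogenic fat marker sum of 353 CPM. CR20-HFD mouse 7 had 78.7 CPM of Rbp4 (115 to 126), and FED-HFD mouse 40 had 58.1 of Nampt (33.9 to 39.8).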

How the results depend on the processing

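The number of members called in eWAT depended on the test. In FED-HFD versus FED-CTRL edgeR called 1, and the count was 4 by voom with quality weights, 2 by voom without them, 2 by DESeq2, 0 without a low-count filter, 0 with only the groups compared and 2 without mice 23 and 5. Over all 15964 genes edgeR called 1278 there, voom with quality weights 1542, voom without them 1246 and DESeq2 1516. Leaving out each mouse gave 0 to 2 members. In CR20-HFD versus FED-HFD 3 were called, and 1 (Apln) with only the groups compared. The Retn call there had adjusted p-values of 0.0133 to 0.101 over the mice left out, that of Cfd 0.0103 to 0.0547 and that of Apln 0.0113 to 0.0419. At a minimum log2FC of 1 Apln was not called. In liver CR20-HFD versus CR20-CTRL, DESeq2 called 1 member (Nrg4), and leaving out each mouse gave 0 to 1. In pituitary, 2 members (Adipoq and Cfd) were called without a filter in FED-HFD versus FED-CTRL and 2 in CR20-HFD versus FED-HFD, and 0 once mouse 10 was left out too. For the fits without a filter, with only the groups compared or with 1 mouse left out, the share of all genes called is not given here. The member counts of those fits thus have no background beside them.

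Signs turned for values near 0. Rarres2 in FED-HFD versus FED-CTRL ran from -0.17 to 0.027 (without mouse 23) over the mice left out and was 0.029 without mice 23 and 5. In CR20-HFD versus FED-HFD it ran from -0.038 (without mouse 23) to 0.15, turned below 0 without CR20-HFD mouse 46 too and was -0.045 without mice 23 and 5. The Lep interaction was -0.057 by voom with quality weights, -0.18 without mice 23 and 5 and -0.070 to 0.21 over the mice left out, and the Rarres2 interaction ran from 0.058 to 0.35 over the mice left out and was -0.072 without mice 23 and 5. Rarres2 in eWAT versus liver was 0.37 with library totals alone. The cause was not tested. Over all genes, leaving out mice 23 and 5 gave 819 calls in FED-HFD versus FED-CTRL, 1093 in CR20-HFD versus FED-HFD and 181 in the interaction. The mouse as a replicate block left 8, 9 and 6 members called between the tissues. In liver 16 and 19 of 24 libraries had no read of Lep and Retn, so group differences in these genes were not detectable at this depth.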

Other observations

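In eWAT, 3 of the 7 tested genes of a thermogenic list were called in FED-HFD versus FED-CTRL, where 8.01% of all genes were called, and they are named after their values were seen. The log2FC was above 0 for 5 of the 7 and below 0 for 2, with a median of 0.33 and a lowest value of -0.54. The thermogenic genes Ucp1 (log2FC 3.80, edgeR adjusted p = 0.0128), Dio2 (1.81, edgeR adjusted p = 0.0429) and Elovl3 (1.70, edgeR adjusted p = 0.0487) were called higher in FED-HFD, and each stayed at or under 2.85 CPM in all FED libraries.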
